A study of Mus musculus with 6 samples.

Results

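The genes described here carry lipid between brain cells and into them. They are Apoe and Clu, which encode the apolipoproteins of brain lipoprotein particles; Abca1 and Abcg1, which load lipid onto them; the lipase gene Lpl; the receptor genes Lrp1, Lrp8 and Cd36; and Fabp5 and Fabp7, which encode carriers of fatty acids inside the cell. The 10 genes were taken by their symbols from a table of 42365 genes counted in 6 RNA-seq libraries of mouse neural progenitor cells (NPC), dividing cultured cells from which neurons and glia can form. The 2 parental libraries had the genotype WT and were titled as clone 1 and clone 2. The other 4 had the genotype KO and were 2 libraries each of 2 knockout clones. No treatment, time point or strain was given in the labels, and each knockout clone is a single line. Separate cultures for the libraries of a group were not given in the sources used here, so p-values measure only the spread of these 6 libraries, which can be technical.

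Lipoproteins do not pass freely from blood to brain, so the brain makes its own. Astrocytes are their main source: ABCA1 and ABCG1 export cholesterol and phospholipid to apolipoprotein E and clusterin, and the particles are taken up through endocytic receptors such as LRP1 and LRP8. Lipoprotein lipase frees fatty acids from triglyceride, CD36 takes fatty acids up at the plasma membrane, and the fatty acid binding proteins FABP5 and FABP7 carry them in the cytoplasm, FABP7 being a known product of radial glia.

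The sequences just upstream of 3 of the genes are shown because Apoe and Abca1, both known targets of the liver X receptors, were lower in the labelled knockout clones, and Fabp7 was higher. They are from RefSeq on the build GRCm38.p6, where 6 of the 10 genes matched, and each is written 5′ to 3′ toward the start of the gene. The Apoe window is chr7:19699189-19699438 on the minus strand, that of Abca1 is chr4:53159896-53160145 on the minus strand, and that of Fabp7 is chr10:57784673-57784880 on the plus strand. Capitals mark matches to 4 motifs searched on both strands.
Apoe: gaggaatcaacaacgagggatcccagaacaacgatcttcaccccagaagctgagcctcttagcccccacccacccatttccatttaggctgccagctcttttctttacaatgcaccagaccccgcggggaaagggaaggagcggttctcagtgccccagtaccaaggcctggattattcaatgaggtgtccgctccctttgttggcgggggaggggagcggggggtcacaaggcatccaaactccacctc
Abca1: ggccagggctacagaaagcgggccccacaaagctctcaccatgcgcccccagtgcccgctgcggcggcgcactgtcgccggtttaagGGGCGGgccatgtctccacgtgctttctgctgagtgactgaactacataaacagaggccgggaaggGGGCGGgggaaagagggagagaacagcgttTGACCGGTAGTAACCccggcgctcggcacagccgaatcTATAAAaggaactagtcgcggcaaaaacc
Fabp7: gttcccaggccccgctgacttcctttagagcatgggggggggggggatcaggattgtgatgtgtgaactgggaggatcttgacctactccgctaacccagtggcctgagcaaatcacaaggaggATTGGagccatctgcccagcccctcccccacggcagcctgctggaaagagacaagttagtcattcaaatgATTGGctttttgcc

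The motifs were the DR4 element of nuclear receptor pairs (2 copies of GGTNA, N being any base, with 5 bases between them), the CCAAT box (CCAAT), the GC box (GGGCGG) and the TATA box (TATAAA). In the printed windows no match overlapped another. The Abca1 window held a DR4 match on the opposite strand (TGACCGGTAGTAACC as printed) that ended 53 bases before the start, 2 GC boxes that ended 158 and 92 bases before it, and a TATA box that ended 24 bases before it. Of 32851 RefSeq windows of 250 bases, 0.621% held a DR4 match, 32.7% a GC box and 12.4% a TATA box. The Fabp7 window is 208 bases long because the last 42 bases before the RefSeq start were left out, the GENCODE gene starting earlier. It held 2 CCAAT boxes on the opposite strand, which ended 122 and 52 bases before that RefSeq start, and 33.8% of all windows held at least 1. The printed Apoe window held none of these motifs. RefSeq gave 10 windows for the 6 matched genes, and the printed ones start nearest to the GENCODE start. Another Apoe window, at chr7:19698572-19698871, held TATA boxes that ended 95 bases (opposite strand) and 91 bases before its own start.

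Totals ran from 58871554 to 69530032 counts per library. Values are CPM, counts scaled to a common library size after the sizes were adjusted by the trimmed mean of M-values (TMM). A group mean is over 2 libraries. The genotype is given as labelled, and both clones go by the name labelled knockout here. The summed level of 10 progenitor and radial glia markers was 4481 to 4493 CPM in the parental libraries, 3100 to 3134 in clone 1 and 3725 to 3772 in clone 2, and 3 of them passed as higher, 4 as lower and 3 did not pass. In parental cells, clone 1 and clone 2 the means were 79.6, 170 and 186 CPM for Nes and 358, 308 and 322 for Sox2, but 60.5, 3.35 and 3.17 for Sox1, and Prom1 was under 1 CPM in each group. The summed level of 10 astrocyte markers was 8212 to 8243 CPM in the parental libraries, 3182 in both of clone 1 and 4066 to 4124 CPM in clone 2. Gfap, the filament gene of astrocytes, was at 2691, 1.59 and 9.70 CPM. The same 10 genes included 1 that passed as higher, 5 as lower and 4 that did not pass. Oligodendrocyte lineage markers summed to 1457 to 1465 CPM in parental cells, 5307 to 5410 in clone 1 and 6245 to 6515 in clone 2, led by Olig1 at 617, 3072 and 3957 CPM, with 4 of 10 higher, 3 lower and 3 not passed. Of 9 neuron markers tested, 5 were lower, 0 higher and 4 did not pass. The sum of all 10 on the list, led by Map2, was 1144 to 1150, 1357 to 1511 and 1042 to 1065 CPM. In clone 1 against parental 3 of these 10 were higher and 7 lower, and in clone 2 0 were higher, 7 lower and 3 did not pass. As the RNA comes from whole cultures, fewer cells of a type and less RNA per cell cannot be told apart.

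The study asked how the neural cell state differs with the labelled knockout. In the comparison with the 2 clones as replicates, 7 of the 10 lipid transport genes were lower than in parental cells, 2 were higher and 1 did not pass. The parental side of this comparison was the 2 single libraries. Over all 24506 genes tested, 26.7% were called, 13.6% lower and 13% higher, and the median log2 fold change was 0.03 against -2.30 for these 10 genes. Fold changes are on the log2 scale, SE is their standard error, and a gene passed at an adjusted p under 0.05 in edgeR's quasi-likelihood test over all genes. In each clone against parental, a fit with single libraries as replicates, 8 were lower and 2 higher. There 54.5% of 23400 genes passed for clone 1 (27.2% lower and 27.3% higher) and 53.5% for clone 2 (26.8% lower and 26.7% higher), and the medians of the 10 genes were -2.02 and -2.67 against -0.01 and 0.02 over all genes. All 3 comparisons share the parental libraries. Lpl and Abcg1 reached the minimum count of the filter only through the parental libraries, so that they had to differ, and the other 8 reached it in every group. The counts and medians above include Lpl and Abcg1. The 10 genes were also chosen with earlier results of these data known. Counts and medians set against all genes, here and below, therefore describe this choice and do not test it.

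**Figure D1:**
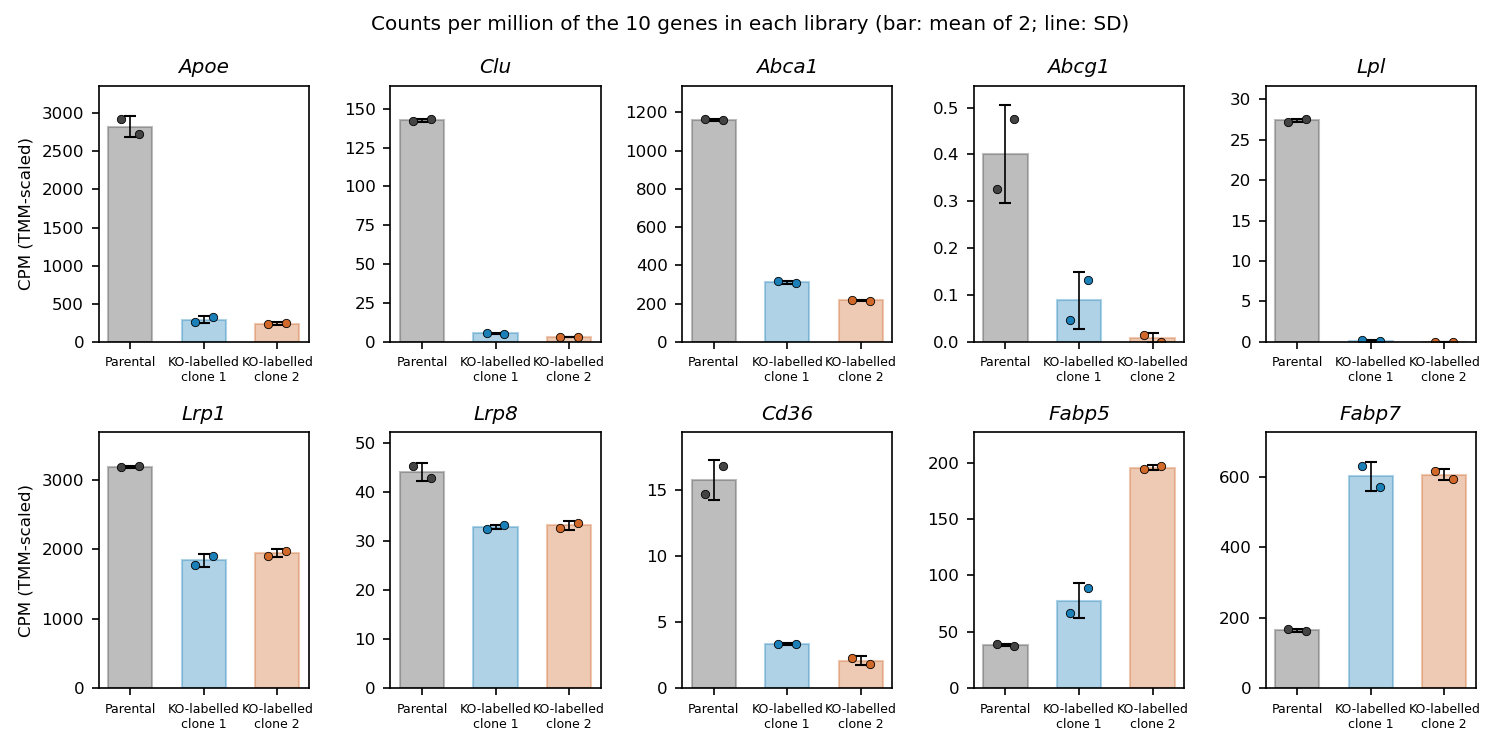
CPM (TMM-scaled, linear axes that start at 0) of the 10 genes in parental cells and the 2 clones labelled knockout. Points are libraries, bars the mean of 2 and lines the SD; for 8 genes both parental libraries stand above all 4 others, and for Fabp5 and Fabp7 below them.

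The genes of the particles fell. Apoe (chr7:19696109-19699188, minus strand, GRCm38) was at 2919 and 2724 CPM in parental cells, 254 and 319 in clone 1, and 229 and 250 in clone 2. Both parental libraries stood far above all 4 others, and the clones came close to each other without overlapping. Apoe fell by 3.39 with the clones as replicates (SE 0.13, adjusted p = 0.000217), a 10.5-fold difference. It fell by 3.30 in clone 1 (SE 0.13, adjusted p = 2.07e-05) and by 3.56 in clone 2 (SE 0.14, adjusted p = 1.69e-05).

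Clu, the gene of clusterin or apolipoprotein J, is at chr14:65968483-65981547 on the plus strand. Its libraries gave 142 and 143 CPM in parental cells, 5.54 and 5.22 in clone 1, and 2.91 and 3.21 in clone 2. The 3 groups did not overlap, with parental highest and clone 2 lowest. The fall was 33.1-fold with the clones as replicates (log2 -5.05, SE 0.30, adjusted p = 0.000571). It was -4.73 in clone 1 (SE 0.064, adjusted p = 2.07e-18) and -5.54 in clone 2 (SE 0.069, adjusted p = 9.73e-19).

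The pumps that lipidate the particles were lower too, at very different levels. Abca1 (chr4:53030787-53159895, minus strand) was at 1164 and 1159 CPM in parental cells, 318 and 307 in clone 1, and 219 and 213 in clone 2. Here also the groups did not overlap, in the order parental, clone 1, clone 2. Its fall was 4.30-fold with the clones as replicates (log2 -2.11, SE 0.18, adjusted p = 0.00141). The changes were -1.90 in clone 1 (SE 0.041, adjusted p = 6.22e-16) and -2.42 in clone 2 (SE 0.042, adjusted p = 4.54e-17). Abca1 is the gene whose upstream window, shown above, held the DR4 match.

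Abcg1 (chr17:31057675-31117988, plus strand), which passes cholesterol to particles that already hold lipid, was barely detected. It had 21 and 28 counts in parental cells, 3 and 9 in clone 1, and 1 and 0 in clone 2, or 0.327, 0.475, 0.0458, 0.131, 0.0151 and 0 CPM. Even the lower parental library exceeded the highest of the others, but a few reads decide these values. Scaled for library size, parental cells had 4.45 times the level of clone 1 (95% exact interval 2.33 to 9.20, from 49 and 12 counts), and for clone 2, with 1 count, the ratio was 50.9 (8.72 to 2051). These intervals cover counting error only.

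With the clones as replicates Abcg1 did not pass (log2 -2.96, SE 0.82, adjusted p = 0.0519). It did under upper quartile scaling (adjusted p = 0.049), with no filter on low counts (0.0357) and in DESeq2 (0.0218), and also without clone 1 library 2 (0.0187) or clone 2 library 2 (0.0355). It passed in clone 1 (-2.14, SE 0.60, adjusted p = 0.00654) and in clone 2 (-5.36, SE 0.92, adjusted p = 0.000115), where these fitted values depend on the prior count. Clone 2 gave -7.66 without its library 1 and -4.52 without its library 2. As Abcg1 reached the minimum count only through the parental libraries, a call against parental adds no support. With the clones as replicates the value was -4.11 without clone 1 library 2. For clone 1 the call was lost without parental library 2 (adjusted p = 0.0992) and without clone 1 library 1 (adjusted p = 0.062), and the value was -3.06 without clone 1 library 2.

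Lpl (chr8:68880491-68907448, plus strand), the gene of lipoprotein lipase, went from a moderate level to almost none. Its values were 27.3 and 27.5 CPM in parental cells, 0.183 and 0.0583 in clone 1, and 0 and 0.0325 in clone 2. In counts this was 1749 and 1623, then 12 and 4, then 0 and 2. No library labelled knockout came near the parental ones. The parental level was 230 times that of clone 1 (95% exact interval 141 to 402, counting error only) and 1751 times that of clone 2 (484 to 14468). The fitted change with the clones as replicates was -8.59 (SE 0.58, adjusted p = 0.000835), the lowest of the 10 genes. In clone 1 it was -7.82 (SE 0.21, adjusted p = 8.54e-15) and in clone 2 -10.61 (SE 0.27, adjusted p = 7.08e-15). These sizes rest on 16 and 2 counts and moved with single libraries. Lpl reached the minimum count of the filter only through the parental libraries, so it had to differ and its p-values add no support. Clone 1 gave -8.81 without its library 1 and -7.19 without its library 2, clone 2 gave -9.60 without its library 1 and -13.78 without its library 2, and the value with the clones as replicates was -9.71 without clone 1 library 1.

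Markers of other cells known for Lpl and Cd36 were near 0. Each of 10 microglia and macrophage markers had a group mean under 1 CPM in all 3 groups, and their sum was 1.85 to 2.26 CPM in parental cells, 1.18 to 1.20 in clone 1 and 0.981 to 1.30 in clone 2. C1qa was at 0 in clone 1, and Itgam, C1qa and Tyrobp were at 0 in clone 2. The 5 adipocyte markers summed to 0.475 to 0.624 CPM, 0.189 to 0.381 and 0.0811 to 0.0906, with Lep at 0 in clone 1 and Adipoq and Cidec at 0 in clone 2. The sum of 8 endothelial markers was 2.04 to 2.37, 3.90 to 4.56 and 2.10 to 2.11 CPM, with Cdh5 at 0 in clone 2, and that of 8 mural cell and fibroblast markers was 5.33 to 5.46, 3.15 to 5.09 and 2.00 to 2.14, with Lum at 0 in clone 2. The summed level of the astrocyte markers was lower in the same 4 libraries as Apoe, Clu, Abca1, Lpl and Cd36, with none of the 10 markers at 0. Single astrocyte markers were split. Against parental, 2 were higher and 7 lower in clone 1, and 4 were higher and 6 lower in clone 2. Over all genes, 27.3% were higher and 27.2% lower in clone 1, and 26.7% and 26.8% in clone 2. Slc1a2 was at 1054, 1113 and 1567 CPM in parental cells, clone 1 and clone 2, and Gja1 at 432, 0.556 and 1.10 CPM. The oligodendrocyte lineage sum was higher in the labelled knockout libraries, as Fabp5 and Fabp7 were. Its markers were split too, as given above, with Gpr17 at 157, 14.5 and 8.44 CPM. The part of these markers in the results was not tested.

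Of the receptor genes, Lrp1 and Lrp8 had small falls and Cd36 a larger one. Lrp1 (chr10:127538161-127621148, minus strand) encodes a large endocytic receptor for apolipoprotein E and many other ligands. It was at 3176 and 3198 CPM in parental cells, 1773 and 1903 in clone 1, and 1902 and 1980 in clone 2. The parental libraries were highest, while the clones overlapped by less than 1 CPM. The fall was 1.65-fold with the clones as replicates (log2 -0.72, SE 0.092, adjusted p = 0.00492). Without parental library 1 or 2 it did not pass, with adjusted p of 0.1 and 0.101. In clone 1 it was -0.79 (SE 0.044, adjusted p = 1.29e-10) and in clone 2 -0.72 (SE 0.044, adjusted p = 5.02e-10).

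Lrp8 (chr4:107802261-107876840, plus strand), also called apolipoprotein E receptor 2, binds reelin as well as lipoproteins. It gave 45.3 and 42.7 CPM in parental cells, 32.5 and 33.1 in clone 1, and 32.5 and 33.7 in clone 2. The 4 labelled knockout libraries lay within little more than 1 CPM of each other, below both parental ones. The change was 1.31-fold (log2 -0.38, SE 0.094, adjusted p = 0.0363), the one nearest to 0 among the 10 genes. That call was lost without parental library 1 (adjusted p = 0.467), without parental library 2 (adjusted p = 0.336) and with no filter on low counts (adjusted p = 0.112). Each clone alone gave -0.42 and -0.41 (SE 0.057 in both, adjusted p = 8.05e-06 and 1.28e-05).

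A strand setting for the counting was not given in the sources used here, and antisense genes overlap both receptors. They held 3 to 21 counts per library for Gm16217 at Lrp1, and 3 to 12 and 22 to 82 counts for Lrp8os1 and Lrp8os2 at Lrp8. Their exons do not overlap those of the receptor genes.

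Cd36 (chr5:17781690-17888801, minus strand), the gene of a scavenger receptor and fatty acid translocase, was at 14.7 and 16.9 CPM in parental cells, 3.32 and 3.39 in clone 1, and 2.32 and 1.87 in clone 2. The groups did not overlap and had the same order as for Clu and Abca1. Its fall was 5.66-fold with the clones as replicates (log2 -2.50, SE 0.26, adjusted p = 0.00241). By clone it was -2.23 (SE 0.12, adjusted p = 6.06e-11) and -2.91 (SE 0.13, adjusted p = 4.23e-12).

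The intracellular carriers rose. Fabp7 (chr10:57784881-57788450, plus strand), or brain lipid binding protein, was at 168 and 161 CPM in parental cells, 631 and 572 in clone 1, and 617 and 595 in clone 2. All 4 labelled knockout libraries were far above the parental ones, and those of the 2 clones overlapped. The rise was 3.75-fold with the clones as replicates (log2 1.91, SE 0.087, adjusted p = 0.00031). It was 1.87 in clone 1 and 1.88 in clone 2 (SE 0.050 in both, adjusted p = 8.03e-15 and 8.35e-15).

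Fabp5 (chr3:10012548-10016607, plus strand), the epidermal type carrier that is also made in brain, was at 39.3 and 37.5 CPM in parental cells, 66.5 and 88.7 in clone 1, and 194 and 197 in clone 2. The groups did not overlap, with clone 2 highest and clone 1 between. In clone 1 it rose by 1.01 (SE 0.15, adjusted p = 0.00439) and in clone 2 by 2.35 (SE 0.15, adjusted p = 0.000197). With the clones as replicates the change was 1.87 (SE 0.46, adjusted p = 0.0466), and this call was lost under 8 alternatives. Among these the adjusted p was 0.426 without parental library 1, 0.447 without parental library 2, 0.0638 without clone 1 library 2 and 0.0509 without clone 2 library 2. The processed copy Fabp5l2, which resembles Fabp5, had 0 to 5 counts per library. Whether other copies took reads from Fabp5 cannot be read from the table.

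**Figure D2:**
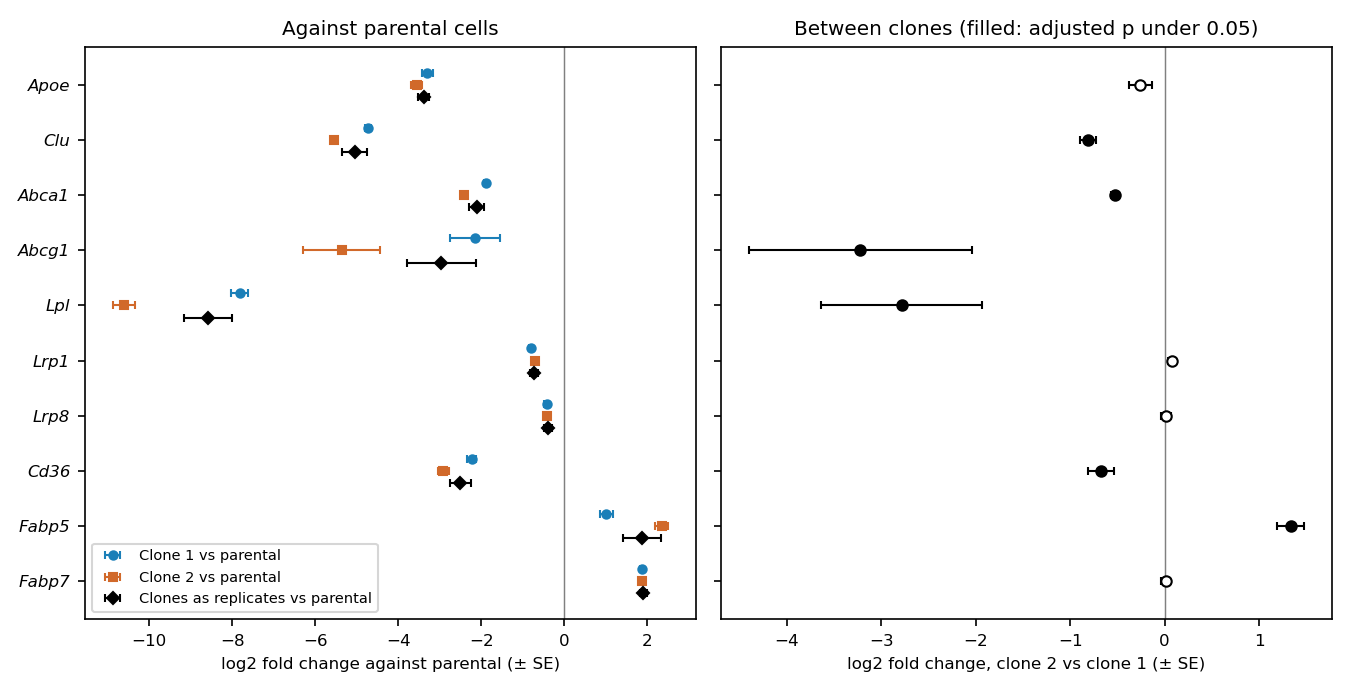
Log2 fold changes ± SE of the 10 genes, against parental cells in each clone and with the clones as replicates (left), and of clone 2 against clone 1 (right, filled where the adjusted p was under 0.05). Falls range from -0.38 for Lrp8 to -8.59 for Lpl with the clones as replicates, and between the clones Fabp5 alone is filled above 0.

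The clones labelled knockout also differed from each other. In clone 2 against clone 1, 5 of the 10 genes were lower, 1 was higher and 4 did not pass, where 36.4% of 23400 genes passed (20.3% lower and 16.1% higher). The median of the 10 genes was -0.39, and that of all genes -0.01. Fabp5 was higher in clone 2 by 1.33 (SE 0.14, adjusted p = 0.00253). Clu was lower by 0.81 (SE 0.081, adjusted p = 9.58e-07), Cd36 by 0.68 (SE 0.14, adjusted p = 0.00107) and Abca1 by 0.53 (SE 0.041, adjusted p = 4.51e-08).

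The clone differences of the 2 rarest genes rest on few counts. Lpl had 16 counts in clone 1 and 2 in clone 2 (log2 -2.78, SE 0.85, adjusted p = 0.0174), and the call was lost without clone 1 library 1 (adjusted p = 0.248) and without clone 2 library 1 (adjusted p = 0.164). Abcg1 had 12 and 1 (log2 -3.22, SE 1.18, adjusted p = 0.0431), and its call was lost with either parental library left out and with all but 1 of the 4 clone libraries left out in turn, at adjusted p up to 0.279. With single libraries left out the clone difference ran from -1.76 to -5.97 for Lpl and from -2.29 to -5.54 for Abcg1. In limma-voom neither difference passed (adjusted p = 0.0612 for Lpl and 0.0531 for Abcg1).

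Apoe differed between the clones by -0.26 (SE 0.12, adjusted p = 0.19), which passed when clone 1 library 1 was left out (-0.40, adjusted p = 9.64e-06). Lrp1 differed by 0.08 (SE 0.044, adjusted p = 0.182), and passed without clone 1 library 2 (0.13, adjusted p = 0.00812). Apoe also passed in limma-voom (-0.25, adjusted p = 0.0432), and Lrp1 with no filter on low counts (0.10, adjusted p = 0.0228). Lrp8 differed by 0.01 (SE 0.057, adjusted p = 0.878). Fabp7 differed by 0.01 (SE 0.048, adjusted p = 0.892), and without clone 1 library 1 by 0.10 (adjusted p = 0.0485).

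In library values, 8 of the 10 genes had all 4 labelled knockout libraries below both parental ones and 2 had them above. Over the 23400 genes the shares were 28.6% and 28.1%. Between the clones, 6 had both libraries of clone 2 below both of clone 1 (Apoe, Clu, Lpl, Abca1, Abcg1 and Cd36), 1 had them above (Fabp5), and Lrp1, Lrp8 and Fabp7 overlapped. Those shares were 34.3% and 32% of all genes.

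Dividing by exon length allows the genes to be compared with each other. On this scale, CPM per kilobase of exon, the order in parental cells was Apoe at 1320, Lrp1 at 179.9, Fabp7 at 132, Abca1 at 112, Clu at 41.5, Fabp5 at 10.8, Cd36 at 4.40, Lrp8 at 4.18, Lpl at 2.61 and Abcg1 at 0.0550. Only Cd36 and Lrp8 had libraries that overlapped with their neighbour in this order. Fabp7 led in both clones, at 481 and 485 CPM per kilobase, and Apoe followed at 134 and 112.

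In clone 1 the order went on with Lrp1 at 104, Abca1 at 30.1, Fabp5 at 21.8, Lrp8 at 3.12, Clu at 1.56, Cd36 at 0.936, Abcg1 at 0.0121 and Lpl at 0.0115 CPM per kilobase, the last pair overlapping. In clone 2, Apoe and Lrp1, at 109.6 CPM per kilobase, overlapped. Fabp5 at 54.9 stood above Abca1 at 20.9 there, followed by Lrp8 at 3.15, Clu at 0.891, Cd36 at 0.584, and Lpl and Abcg1 at 0.00155 and 0.00103, which overlapped.

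**Figure D3:**
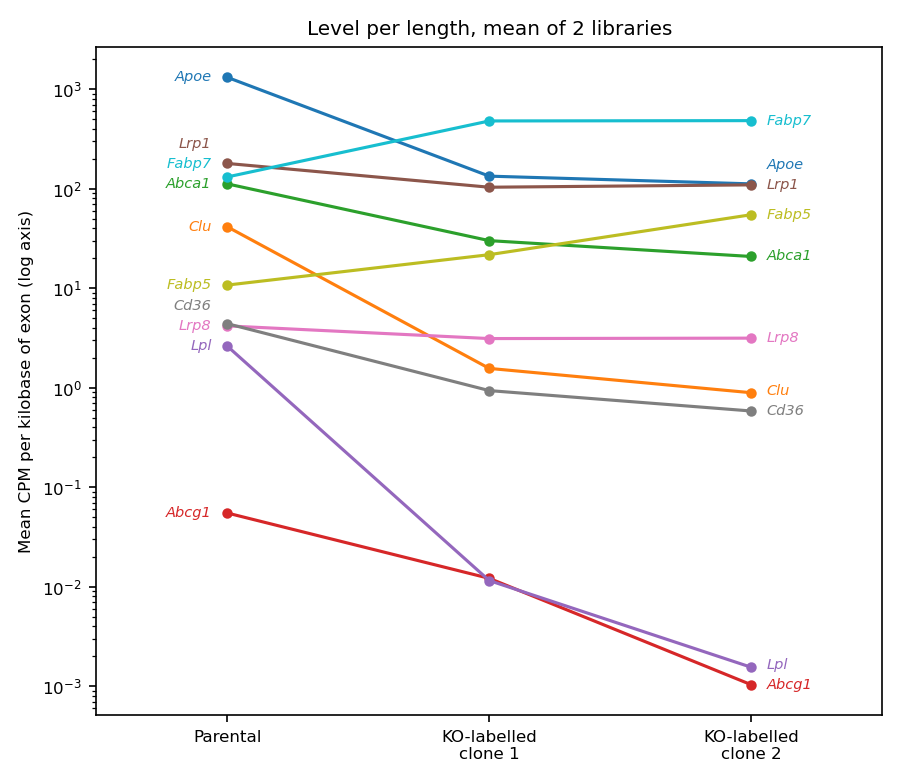
Mean level per length (CPM per kilobase of exon, log axis) of the 10 genes in parental cells and the 2 clones labelled knockout; each point is the mean of 2 libraries. Apoe stands highest in parental cells at 1320 and Fabp7 highest in the clones at 481 and 485.

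The balance within each pair of related genes moved as well. The ratio of Apoe to Clu, per length, was 33.1 and 30.6 in parental cells, 73.8 and 98.4 in clone 1, and 126 and 125 in clone 2. It was higher in every labelled knockout library than in both parental ones. The ratio of Fabp7 to Fabp5 was 12.2 and 12.3 in parental cells, 27.1 and 18.4 in clone 1, and 9.06 and 8.61 in clone 2. It thus lay above the parental values in clone 1 and below them in clone 2.

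A list of 72 other genes of lipid transport, in 6 role groups, set these genes in their pathway. Of the 66 tested with the clones as replicates, 17 were higher, 23 were lower and 26 did not pass, with a median log2 fold change of -0.07 against 0.03 over all genes. Under upper quartile scaling the split was 10 higher and 24 lower, and for the 10 genes above it was 1 and 8. The list gave 22 higher and 31 lower in clone 1, 25 and 30 in clone 2, and 22 and 16 in clone 2 against clone 1. Over all genes tested, 26.7% were called with the clones as replicates, 54.5% in clone 1, 53.5% in clone 2 and 36.4% between the clones. Without parental library 1 or 2 fewer of the list passed with the clones as replicates, and fewer passed over all genes too.

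Of the 8 tested genes of apolipoproteins and particle remodelling, 4 were lower, 1 was higher and 3 did not pass. Pltp, the phospholipid transfer protein gene, was at 34.9, 6.39 and 3.36 CPM in parental cells, clone 1 and clone 2, and fell by 2.81 (SE 0.32, adjusted p = 0.00346). Apoc1, whose gene lies 3448 bases from Apoe on the same strand, was at 5.92, 0.864 and 1.54 CPM and fell by 2.27 (SE 0.31, adjusted p = 0.00651). Between the clones it was higher in clone 2 by 0.83 (SE 0.19, adjusted p = 0.0027), where Apoe had -0.26. Abca7, a relative of Abca1, was at 56.3, 37.6 and 35.1 CPM and fell by 0.60 (SE 0.091, adjusted p = 0.0086), a call lost without parental library 1 (adjusted p = 0.173) or 2 (adjusted p = 0.139).

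Receptors other than those above moved in both directions: of 17 tested with their adaptors and regulators, 5 were higher, 5 were lower and 7 did not pass. Scarb1, which encodes the HDL receptor SR-B1, was at 18.5, 103 and 78.0 CPM and rose by 2.32 (SE 0.16, adjusted p = 0.000694). Sorl1, a sorting receptor that binds apolipoprotein E, was at 152, 1.10 and 2.72 CPM and fell by 6.28 (SE 0.49, adjusted p = 0.00146). It did not pass without parental library 1 or 2, with adjusted p of 0.0576 and 0.0598.

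Lipases and their regulators gave 3 higher, 3 lower and 3 not passed of 9 tested. Angptl4, whose product inhibits lipoprotein lipase, was at 14.4, 0.321 and 0.462 CPM and fell by 5.17 (SE 0.24, adjusted p = 0.000322), so that both the lipase gene Lpl and the gene of its inhibitor were lower. Mgll, the monoglyceride lipase gene, was at 107, 14.7 and 7.14 CPM and fell by 3.26 (SE 0.36, adjusted p = 0.00427). Pnpla2, which encodes adipose triglyceride lipase, was at 71.2, 48.6 and 52.5 CPM and fell by 0.46 (SE 0.092, adjusted p = 0.0203), a call lost without parental library 1 or 2 (adjusted p = 0.286 and 0.256).

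Of 13 tested genes of fatty acid uptake, binding and activation, 5 were lower, 2 were higher and 6 did not pass. Acsbg1, an acyl-CoA synthetase gene, was at 84.6, 343 and 416 CPM and rose by 2.20 (SE 0.13, adjusted p = 0.000481). Another synthetase gene, Acsl1, was at 14.6, 4.19 and 3.25 CPM and fell by 1.94 (SE 0.17, adjusted p = 0.00148). Cav1, the caveolin-1 gene, was at 2.62, 0.155 and 0.315 CPM and fell by 3.44 (SE 0.37, adjusted p = 0.00282).

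For endosomal cholesterol export, esters and lipid droplets, 4 of 10 tested genes were higher, 3 were lower and 3 did not pass. Cyp46a1, the cholesterol 24-hydroxylase gene, was at 19.7, 3.53 and 3.42 CPM and fell by 2.47 (SE 0.13, adjusted p = 0.000375). Npc1, which exports cholesterol from endosomes, was at 169, 289 and 272 CPM and rose by 0.76 (SE 0.086, adjusted p = 0.00342). Soat1, which esterifies cholesterol, was at 231, 124 and 138 CPM and fell by 0.79 (SE 0.098, adjusted p = 0.00469). Without parental library 1 or 2 neither Npc1 (adjusted p = 0.0853 and 0.0629) nor Soat1 (adjusted p = 0.0629 and 0.0524) passed.

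Of the 9 tested nuclear receptors and lipid regulators, 3 were lower, 2 were higher and 4 did not pass. Rxra, a partner of the liver X receptors, was at 104, 48.5 and 49.1 CPM and fell by 1.06 (SE 0.084, adjusted p = 0.00109). The other partner gene listed, Rxrb, also chosen for mention after its value was seen, did not pass (-0.23, SE 0.10, adjusted p = 0.164). Srebf1, a regulator of fatty acid synthesis genes, was at 262, 45.1 and 70.6 CPM and fell by 2.15 (SE 0.23, adjusted p = 0.00276). Targets of the liver X receptors were not examined as a set. Ppargc1a, a coactivator gene, was at 48.1, 119 and 126 CPM and rose by 1.38 (SE 0.090, adjusted p = 0.000624). The liver X receptor genes themselves, chosen for mention after their values were seen, did not pass with the clones as replicates: Nr1h2 had 0.08 (SE 0.14, adjusted p = 0.694) and Nr1h3, at 44 to 73 counts in parental cells and clone 1 and 29 and 34 in clone 2, had -0.56 (SE 0.34, adjusted p = 0.29). In clone 2 against parental, Nr1h2 was higher by 0.21 (SE 0.061, adjusted p = 0.00793) and Nr1h3 lower by 1.02 (SE 0.31, adjusted p = 0.00979), and in clone 1 neither passed (-0.13, adjusted p = 0.0853, and -0.25, adjusted p = 0.484). Between the clones Nr1h2 was higher in clone 2 by 0.34 (SE 0.061, adjusted p = 0.000333), and Nr1h3 had -0.77 (adjusted p = 0.0629).

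**Figure D4:**
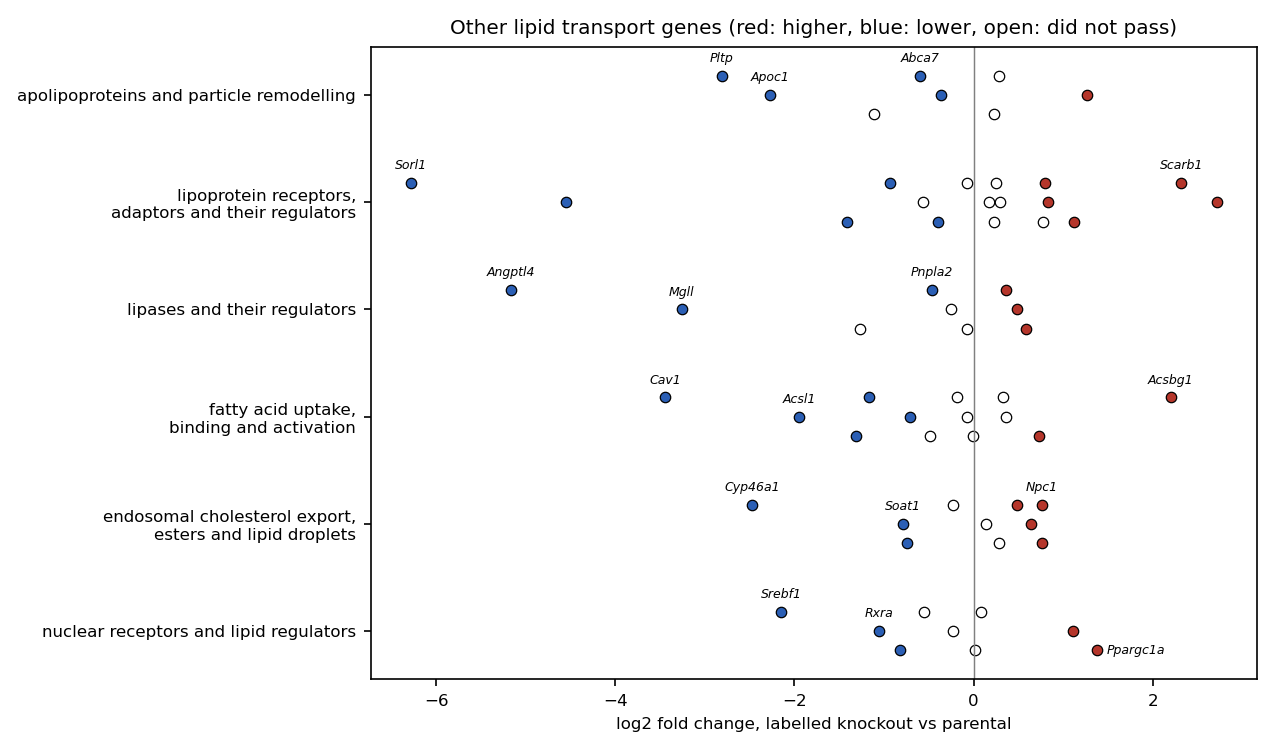
Log2 fold change, labelled knockout against parental with the clones as replicates, of the 66 tested genes of the lipid transport list in 6 role groups (red higher, blue lower, open not passed; the names mark genes described in the text). Calls lie on both sides of 0 in every group; Sorl1 has the lowest value, -6.28.

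Genes with a like pattern were sought among 10926 genes of at least 5 CPM, by the root mean square difference in log2 CPM over the 6 libraries after each gene was centred on its mean. Nearest to Apoe were Tmem117 at 0.0723, Fgd3 at 0.0757 and Aebp1 at 0.118, with means of 15.2, 1.63 and 1.36 CPM in parental cells, clone 1 and clone 2 for Tmem117. Nearest to Fabp7 were Fat4 at 0.0403, Robo1 at 0.0456 and Lama5 at 0.0669. Fat4, a large cadherin gene, was at 108, 398 and 403 CPM. The distances for Lpl were larger, 0.657 for Rgs4, 0.77 for Cacng5 and 0.851 for Galnt15. Rgs4, a regulator of G protein signalling, was at 37.4, 0.135 and 0.0859 CPM. These distances describe 6 libraries in 3 groups and carry no test.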

How the data were processed

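The authors deposited whole-number counts per gene, not normalized, for 6 libraries of total RNA. Per the submitters' processing notes, the tools were STAR and featureCounts, with versions not given in the sources used here, and the builds GRCm38.p6 and mm10. Per the labels' protocols, libraries were made with an ultra-low input or a TruSeq kit, and the kit of each library was not given in the sources used here. Columns were matched to samples by name. Of 42365 IDs, 41869 were found in the GENCODE annotation of GRCm38 used for symbols, coordinates and exon lengths, among them all 10 genes.

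In R 4.3.3 with edgeR 4.0.16, genes were kept by filterByExpr (minimum count 10), TMM gave the scaling, and p-values came from the quasi-likelihood test (robust) with adjustment by Benjamini and Hochberg over all genes tested, at 0.05. For labelled knockout against parental, the 2 libraries of each knockout clone were added and the 2 parental libraries were kept single, which left 2 residual degrees of freedom. The other comparisons came as contrasts from a single fit to all 6 libraries (3 groups, 3 residual degrees of freedom). The SE is the size of the log2 fold change divided by the square root of F, and a fold is 2 to the power of that size. The tests were first run on simulated counts, in which both clones had the same changes and no spread of their own. Such counts cannot show how the test with the clones as replicates behaves where clones differ.

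The genes and lists were chosen with earlier results of these data known. Named in the text were the 10 genes, up to 3 genes of each role group with the smallest adjusted p among those called, the 3 nearest patterns of Apoe, Lpl and Fabp7, and copies or overlapping genes. Some results under this rule are not reported here. Alternatives were DESeq2 size factors, upper quartile scaling, a filter at a mean of 5 CPM and none at all, limma-voom (limma 3.58.1), DESeq2 1.42.0, a replicate block, single libraries as replicates, a log2 fold change of at least 1, and leaving out each library.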

Additional observations from a re-analysis of the deposited data

Results flagged for a closer look

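The effect against the shared parental libraries differed between the clones labelled knockout, by the test of clone 2 against clone 1, for 6 of the 10 genes. Over all 23400 genes tested, 36.4% passed in this comparison. The log2 difference was -0.81 for Clu, -0.53 for Abca1, -0.68 for Cd36 and 1.33 for Fabp5. For Lpl it was -2.78 and for Abcg1 -3.22, both from few counts. Outlying libraries could not be tested, with 2 libraries in a group.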

How the results depend on the processing

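With 2 libraries per group and 2 clones, a library that stands apart cannot be told from a true spread, and the kit of each library was not given in the sources used here. Fewer genes had any count in each labelled knockout library (30747 to 32686) than in either parental one (37419 and 37678). Totals did not split this way, the lowest being that of parental library 2 (58871554) and the highest that of clone 1 library 2 (69530032). Whether the kit has a part in this was not tested. Among the 10 genes, low counts limit Lpl and Abcg1. With each library left out in turn, where a group left with 1 library is assumed to vary like the others, the number of the 10 genes called was 6 to 9 with the clones as replicates, 9 to 10 for clone 1, 10 in every run for clone 2, and 4 to 7 for clone 2 against clone 1. For the 72 other genes it was 15 to 41, 51 to 54, 48 to 57 and 28 to 43, the lowest of the first being without either parental library (16 and 15). Over all genes, too, fewer were called with the clones as replicates when either parental library was left out. A change of at least 1 on the log2 scale left 3 of the 10 genes in clone 2 against clone 1: Fabp5, and Lpl and Abcg1 with their few counts. Of the 72 others it left 21 with the clones as replicates, 23 in clone 1, 22 in clone 2 and 3 between the clones. Over all genes it left 4035 of 24506 with the clones as replicates. Of 23400 genes it left 5084 in clone 1, 5101 in clone 2 and 1500 between the clones. For Fabp7, clone 2 against clone 1 gave -0.062 without clone 1 library 2 (labels' replicate 2), a turn of sign, with 0.10 as the highest value of that series; the cause was not tested. Libraries with the same number did not deviate together (correlations of -0.015 to 0.019), so the numbers were not taken as pairs. With a replicate block, labelled knockout against parental is the average effect of the 2 clones, and single libraries are the replicates. In this fit 10 of the 10 genes were called in labelled knockout against parental and 5 between the clones, with 56 and 37 of the 72 others. Over all genes the first comparison gave 13140 calls, against 6532 with the clones as replicates. In the block fit Abcg1 passed in labelled knockout against parental (adjusted p = 0.000163) and no longer passed between the clones (adjusted p = 0.0548). Single libraries as replicates without the block gave 13213. In clone 1 and clone 2 against parental the block gave 10 and 10 of the 10 genes and 53 and 54 of the others. A mean of at least 5 CPM leaves Abcg1 untested. Of the single-gene values under the alternatives, 518 for the 10 genes kept direction and side of the threshold, 12 newly passed, 34 no longer passed and 1 turned. For the other named genes these numbers were 254, 0, 14 and 0. No alternative scaling moved the median of all genes by over 0.1 on the log2 scale.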
